A study of Homo sapiens with 14 samples.

Results

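Narrow promoters that carried H3K4me3 on both matrices, but no peak of phosphorylated JUN, numbered 3422 of 20393 merged H3K4me3 regions (16.8%) in LX-2 cells. These members were chosen by the deposited peak calls themselves. Of all regions, 16098 (78.9%) were called in all 4 H3K4me3 lists. Within 1 kb of a protein-coding transcript start lay 12582 of them, and 10894 of these were narrower than 2000 bp. No H3K27me3 peak overlapped 10569, and no p-JUN peak of any list overlapped the final 3422. The calls, the widths and the distance to a start are therefore descriptions. The comparisons below use H3K27ac, promoter sequence and the H3K4me3 values of the soft and stiff libraries. Letters that JUN can bind are tied to the choice by p-JUN peaks, so their shares are descriptions too. Regions that met the same rule but overlapped p-JUN in all 4 p-JUN lists (4776, called promoters with p-JUN here) served as the most similar group.

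LX-2 is an immortalised human hepatic stellate cell line, here of wild type genotype, and cells on a matrix that was soft or stiff were collected after 2 days. CUT&Tag was used, in which an antibody tethers a transposase to its target and the released DNA fragments are sequenced. H3K4me3, H3K27me3 and p-JUN had 2 libraries per matrix, and H3K27ac had 1 merged list per matrix, so the replicate error of H3K27ac is unknown. The stiff p-JUN libraries carried TCP in their titles, the study's abbreviation for culture plastic, where the stiff histone libraries carried 40K, so absence of p-JUN on stiff refers to the libraries labelled stiff. The samples were bulk cells, in which fewer cells carrying a mark and less of the mark per cell cannot be told apart.

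H3K4me3 is deposited around the starts of genes that are active or poised, and H3K27ac marks active promoters and enhancers. JUN is a subunit of AP-1, a dimeric transcription factor that binds mostly at enhancers and at part of all promoters. The kinase JNK can phosphorylate JUN. In cells on the stiff matrix the study reported lower p-JUN after inhibition of the kinase ERK, but not of JNK or p38. Housekeeping genes usually start in CpG islands that are bound by factors such as ETS proteins, NRF1, YY1, NF-Y and Sp/KLF proteins.

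The sequence just upstream of 6 member starts is shown so that the motifs counted below can be seen in place. For each of these motifs the member with the highest mean H3K4me3 level that held it outside annotated exons is given, 5′ to 3′ on the strand of the gene, with the motif in capitals. Coordinates are those of hg19 (GRCh37). All stretches but that of MRPL52 end at the base before the transcript start.
ZNF486, a zinc finger gene with an ETS motif, chr19:20277823-20278022, plus strand: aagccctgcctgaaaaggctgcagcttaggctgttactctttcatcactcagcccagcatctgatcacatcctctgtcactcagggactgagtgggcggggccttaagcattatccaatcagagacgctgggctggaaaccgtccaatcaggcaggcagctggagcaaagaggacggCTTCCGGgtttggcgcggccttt
MTPAP, the mitochondrial poly(A) polymerase gene with an NRF1 motif, chr10:30638208-30638407, minus strand: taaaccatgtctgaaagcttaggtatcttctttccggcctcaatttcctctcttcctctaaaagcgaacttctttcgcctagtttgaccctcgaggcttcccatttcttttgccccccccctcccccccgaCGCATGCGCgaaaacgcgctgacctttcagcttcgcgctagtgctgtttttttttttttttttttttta
MRPL52, a mitochondrial ribosomal protein gene with a YY1 motif, chr14:23298988-23299017, plus strand: acgatgacccAAGATGGCGgagccgtgatt
DHX36, a helicase gene with a cAMP response element (CRE), chr3:154042277-154042476, minus strand: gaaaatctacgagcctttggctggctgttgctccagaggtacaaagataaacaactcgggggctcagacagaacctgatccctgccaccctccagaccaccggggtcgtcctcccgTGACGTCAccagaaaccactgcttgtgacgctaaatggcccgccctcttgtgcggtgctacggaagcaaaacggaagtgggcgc
ZNF317, a zinc finger gene with a ZNF143 motif, chr19:9250873-9251072, plus strand: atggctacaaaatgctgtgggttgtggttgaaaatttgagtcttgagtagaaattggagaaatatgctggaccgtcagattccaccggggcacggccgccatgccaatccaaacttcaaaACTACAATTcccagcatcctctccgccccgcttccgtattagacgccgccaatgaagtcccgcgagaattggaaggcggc
ECHS1, a mitochondrial enoyl-CoA hydratase gene with a ZBTB33 motif, chr10:135186859-135187058, minus strand: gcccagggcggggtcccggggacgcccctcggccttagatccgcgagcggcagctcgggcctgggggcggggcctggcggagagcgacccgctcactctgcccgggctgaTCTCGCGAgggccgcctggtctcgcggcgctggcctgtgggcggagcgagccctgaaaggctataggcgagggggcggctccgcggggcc

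The motif began at −23 relative to the start in ZNF486, at −69 in MTPAP, at −98 in MRPL52, at −84 in DHX36, at −80 in ZNF317 and at −90 in ECHS1. These positions lie in the stretch where promoter factors usually bind, but a match of letters is not a bound site. The 200 bases of ECHS1 had a GC content of 78.0% and held the Sp/KLF motif 4 times, and those of MTPAP had 47.0% and held none. DHX36 is the example with letters that a JUN dimer can bind, and the nearest p-JUN peak of any list lay 85645 bp from its region.

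To see what these regions cover, their place relative to the start was examined first. A median member was 1044 bp wide, with quartiles of 797 and 1348 bp, and the range ran from 356 to 1999 bp. Each region was assigned a start, with canonical starts preferred even where another coding start was closer. The assigned start lay within 1806 members (52.8%), while 1335 (39.0%) lay downstream of it and 281 (8.21%) upstream. Of the promoters with p-JUN, 4058 (85.0%) contained their assigned start. A coding start of any transcript lay within 2198 members (64.2%) and 4292 promoters with p-JUN (89.9%). The H3K4me3 summits of members sat further into the gene, at a median of 390 and 396 bp downstream on soft, then 372 and 364 bp on stiff, against 194 and 202 bp, then 188 and 196 bp, at promoters with p-JUN. The order was the same in all 4 libraries, which score the same merged regions. A p-JUN peak overlapped the 300 bases at the start in 94.1% of promoters with p-JUN. Leaving out regions that overlap p-JUN therefore bears on placement itself, and the difference is a description.

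The label of a promoter without p-JUN holds for the H3K4me3 region and not always for the start beside it. In 546 members (16.0%) a p-JUN peak overlapped the 300 bases at the start, from 250 before to 50 after, and in 528 of these the region lay beside its start. The nearest p-JUN peak was a median of 8623 bp away, with quartiles of 1607 and 28991 bp. It lay within 1 kb for 713 members (20.8%) and over 100 kb away for 196 (5.73%). Members within 1 kb of p-JUN contained a coding start in 252 of 713 cases (35.3%), and members over 100 kb away in 169 of 196 (86.2%). At the gene level, 3451 coding genes had a member at a start, of 12456 genes with H3K4me3 in all 4 lists (27.7%). Of the 3451, 814 also had a further H3K4me3 promoter, of any width, with a p-JUN peak in any list.

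Next, H3K27ac was compared, a mark that the choice of members did not use. A peak of the soft list overlapped 417 members (12.2%, 95% Wilson interval 11.1 to 13.3), against 43.0% of all 16098 H3K4me3 regions. A peak of the stiff list overlapped 228 members (6.66%, 5.87 to 7.55), against 31.8% of all regions. Promoters with p-JUN overlapped H3K27ac in 64.7% on soft and 48.8% on stiff. Members were lower by 52.6 percentage points on soft (interval of the difference −54.3 to −50.8) and by 42.2 points on stiff (−43.8 to −40.5). With 1 list per matrix there is no replicate check and no test, and the intervals cover counting error only.

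The share with H3K27ac followed the number of p-JUN lists that had a peak in the region. Regions with p-JUN in 1, 2, 3 and 4 lists overlapped soft H3K27ac in 25.2%, 32.7%, 38.8% and 64.7%, above the 12.2% of members with none. On stiff the same steps were 14.9%, 19.9%, 26.2% and 48.8%, above 6.66%. The intervals of members overlapped those of no other class in either list. Median width moved along with the classes, from 1044 bp in members to 1379 bp with p-JUN in 4 lists.

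**Figure D1:**
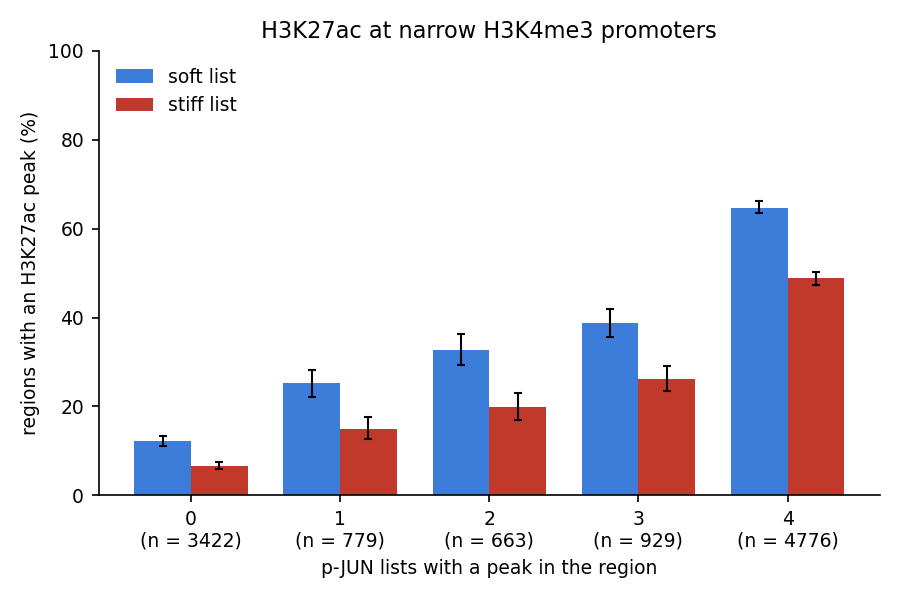
Share of narrow H3K4me3 promoters with an H3K27ac peak (percent, vertical axis) by the number of p-JUN lists with a peak in the region (horizontal axis), for the soft and the stiff H3K27ac list. Bars are shares and lines 95% Wilson intervals; from 0 to 4 lists the share ran from 12.2% to 64.7% in the soft list and from 6.66% to 48.8% in the stiff list.

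Because a wider region meets a peak more often, the comparison was repeated by width. Below 600 bp, 1.53% of 262 members and 37.4% of 123 promoters with p-JUN overlapped soft H3K27ac. From 600 to 1000 bp the shares were 6.95% and 47.0%, from 1000 to 1400 bp 18.1% and 66.0%, and from 1400 to 2000 bp 16.1% and 70.8%. Members were lower in each width class, with differences from −54.8 to −35.9 points. In a window of the same size for every promoter, 1 kb to each side of the start, 18.0% of members and 65.0% of promoters with p-JUN had soft H3K27ac, and 11.1% and 48.6% had it on stiff.

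Placement and base composition were examined in the same way. Members that contained a coding start (2198) overlapped soft H3K27ac in 16.2% and those beside a start (1224) in 5.07%. The same classes of promoters with p-JUN reached 67.4% and 41.1%. At a GC content under 60% in the 300 bases at the start, 20.6% of members and 72.8% of promoters with p-JUN had soft H3K27ac, and at 70% or more the shares were 7.11% and 52.6%. H3K27ac calls were thus rarer in members within each of these classes too.

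Among members, H3K27ac was called less often near p-JUN than far from it. It was found on soft in 5.47% of members within 1 kb of a p-JUN peak (4.03 to 7.39), in 11.6% between 1 and 10 kb, in 15.6% between 10 and 100 kb and in 14.8% beyond 100 kb (10.5 to 20.4). On stiff the shares were 2.38%, 5.34%, 9.11% and 11.7%. The classes differed in placement as well, as given above, and in GC content, whose median was 74.7% within 1 kb and 61.3% beyond 100 kb. Their part in the order of these shares was not tested.

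**Figure D2:**
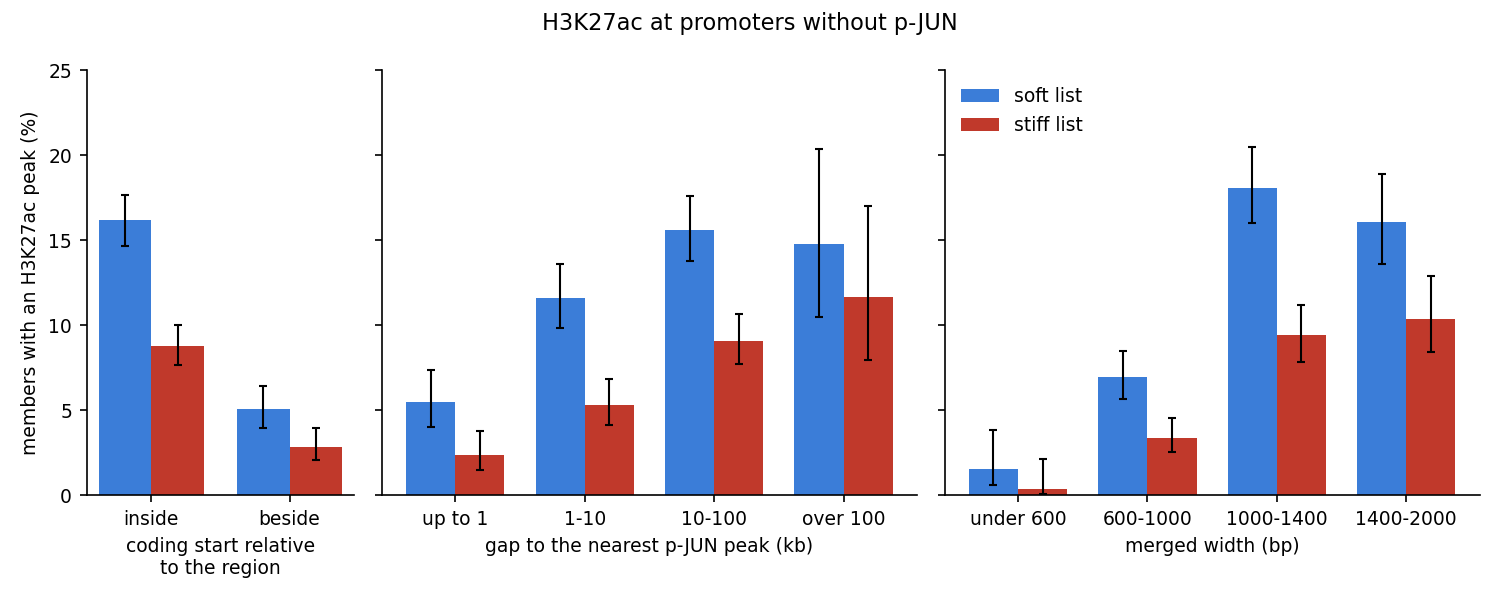
Share of members with an H3K27ac peak (percent, vertical axis) by whether a coding start lies inside the region, by the gap to the nearest p-JUN peak in kb, and by merged width in bp, for the soft and the stiff list. Bars are shares and lines 95% Wilson intervals; members that contain a start (16.2% on soft) and members over 10 kb from p-JUN (15.6% and 14.8%) stood above those beside a start (5.07%) and those within 1 kb of p-JUN (5.47%).

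Between the matrices, 148 members (4.32%) overlapped H3K27ac in both lists and 2925 (85.5%) in neither. H3K27ac was called in the soft list alone at 269 members (7.86%), against 14.5% of all H3K4me3 regions, and in the stiff list alone at 80 (2.34%), against 3.32%. The share on stiff minus that on soft was −5.52 points (−6.91 to −4.15), but the soft list was also longer, with 18238 peaks against 13322. With the soft list cut to the 13322 peaks of highest −log10 q and the members unchanged, 194 members (5.67%) overlapped it and the difference turned to 0.994 points (−0.148 to 2.14). Both intervals treat the shares as separate samples, although the same members were scored in both lists, so they ignore that pairing. Since the sign turned with list length, no direction between the matrices can be read from these shares. Where a peak was present, its median fold over local background was 6.74 on soft and 6.65 on stiff in members, and 7.16 and 6.93 at promoters with p-JUN. The median member peak held 19 fragments at its summit in either list.

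Of members with H3K27ac in both lists, TARDBP, SELENOW and ZNF107 had the highest acetylation. TARDBP, which encodes the RNA-binding protein TDP-43, had an H3K27ac fold of 14.8 on soft and 13.7 on stiff, from 58 and 51 fragments. SELENOW, a selenoprotein gene, had 12.2 and 11.3, and the zinc finger gene ZNF107 had 11.9 and 11.1. Their H3K4me3 was above the median of all regions as well: TARDBP had H3K4me3 folds of 13.0 and 13.3 on soft and 14.0 and 14.2 on stiff, and ZNF107 had 15.9 and 16.9 on soft and 15.9 and 16.3 on stiff. Over all 148 such members the H3K4me3 level, the log2 fold minus the median of all 16098 regions in that library, had medians from 0.31 to 0.35. In the 2925 members with no H3K27ac call the medians ran from −0.12 to −0.10. The acetylated members were also wider (median 1225 against 1008 bp) and lower in GC content (60.5% against 71.0%).

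To compare H3K4me3 itself, the fragments at each summit were recovered from the deposited values. At a median member the soft libraries had 109 and 134 fragments, and the stiff libraries 134 and 196. At a median promoter with p-JUN the soft libraries had 186 and 231, and the stiff libraries 246 and 355, more in 4 of 4 libraries. The local background differed in the same direction, 12.3 to 21.3 fragments at members and 19.0 to 34.1 at promoters with p-JUN, so the fold differed less than the fragments.

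On the fold scale the median H3K4me3 level of members on soft was −0.039 and −0.037, and on stiff −0.049 and −0.034. Promoters with p-JUN had 0.146 and 0.135 on soft and 0.159 and 0.134 on stiff. Members were lower by 0.183 ± 0.018 (SD, n = 4 libraries) on the log2 scale, lower in 4 of 4 libraries, with an exact two-sided sign-flip p of 0.13, the smallest that 4 libraries allow. From fragments in place of folds the difference was −0.823. It shrank to −0.041 where p-JUN within 1 kb counted as p-JUN for both groups, so that both groups changed. For regions that contain a coding start it was −0.098, and below 600 bp it turned to 0.158. No difference between the matrices in this gap was detectable (stiff minus soft −0.009, exact permutation p = 1.0, where 2 libraries against 2 cannot give a p below 0.33).

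**Figure D3:**
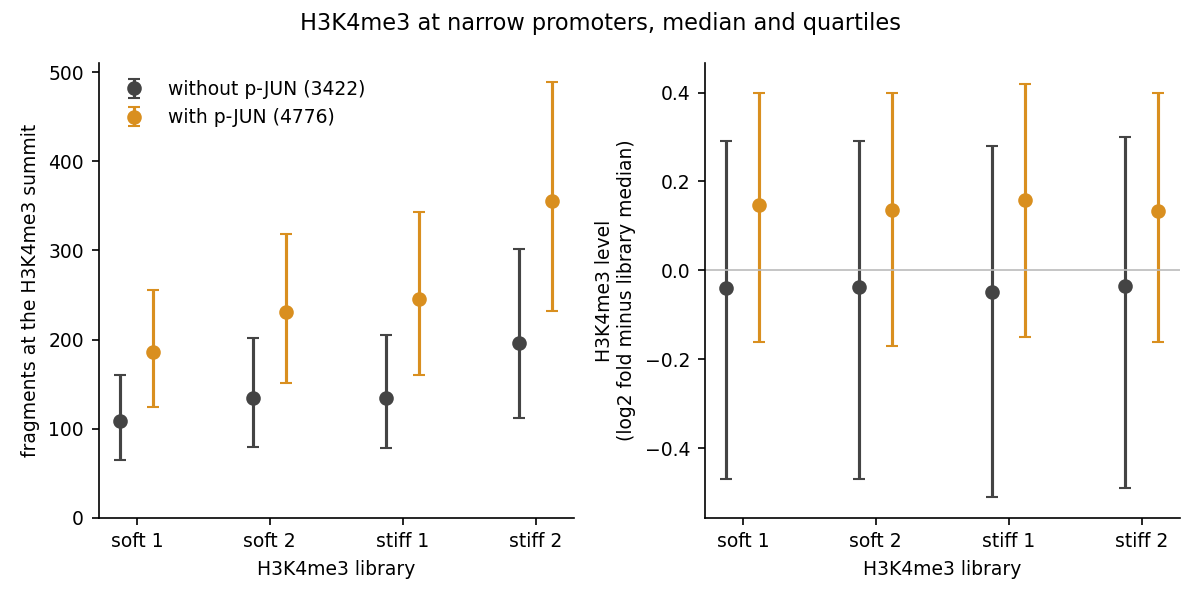
H3K4me3 in each of the 4 libraries (horizontal axis) at 3422 members and 4776 promoters with p-JUN, as fragments at the summit (left) and as level, log2 fold minus the library's median over all regions (right). Points are medians and lines run from the lower to the upper quartile; members lay lower in each library, at 109 to 196 against 186 to 355 fragments, with overlapping quartiles.

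The members with the highest H3K4me3 level were CRBN, ZNF417, BBS1, ZNF268, SIRT4 and ZNF486, with mean levels from 0.91 to 0.96. CRBN, the substrate receptor of an E3 ubiquitin ligase (chr3:3220721-3221487), had folds of 16.9 and 17.8 on soft and 17.9 and 17.1 on stiff. BBS1, a subunit of the ciliary BBSome (chr11:66278057-66278750), had 16.9 and 16.6 on soft and 17.0 and 17.5 on stiff. SIRT4, a mitochondrial sirtuin (chr12:120740061-120740797), had 16.3 and 16.6 on soft and 17.3 and 17.4 on stiff. All of these regions contained their start and were 680 to 928 bp wide. ZNF417 and ZNF486 overlapped H3K27ac on soft, from 8 and 10 fragments, and the other 4 overlapped none.

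Next, soft and stiff were compared member by member. No member passed limma at an adjusted p of 0.05, and neither did any of the 16098 regions (0%). At an unadjusted limma p under 0.05 there were 423 members (12.4%), 136 higher and 287 lower on stiff, against 10.2% of all regions and 5.99% of promoters with p-JUN. Over all regions 701 were higher and 934 lower on stiff, and at promoters with p-JUN 160 were higher and 126 lower. The lowest adjusted p was 0.342. The median member level was −0.038 ± 0.001 on soft and −0.042 ± 0.011 on stiff (SD, n = 2 libraries each), a difference of −0.004 with an exact permutation p of 1.0.

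The size of the differences was set beside the spread of replicates. From the lower to the upper 5% of members, mean stiff minus mean soft ran from −0.26 to 0.22 on the log2 scale. The replicates of soft differed by −0.29 to 0.27 over the same range, and those of stiff by −0.23 to 0.28. The median absolute difference was 0.089 between the means of the matrices, 0.100 between the soft replicates and 0.091 between the stiff ones. Between single libraries, the 4 pairs of a stiff and a soft library had median absolute differences of 0.108 to 0.113, above both replicate pairs. On this scale no member changed by over 2-fold, while on summit fragments 12 members did, beside 57 of all 16098 regions. By this measure pairs across the matrices differed somewhat more than replicates did, but each matrix had a single replicate pair and the order was not tested. By correlation over members, soft 1 with stiff 2 (r = 0.957) was no lower than the soft replicates (r = 0.956). The other pairs of a stiff and a soft library correlated less closely than either replicate pair. No single member passed limma.

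**Figure D4:**
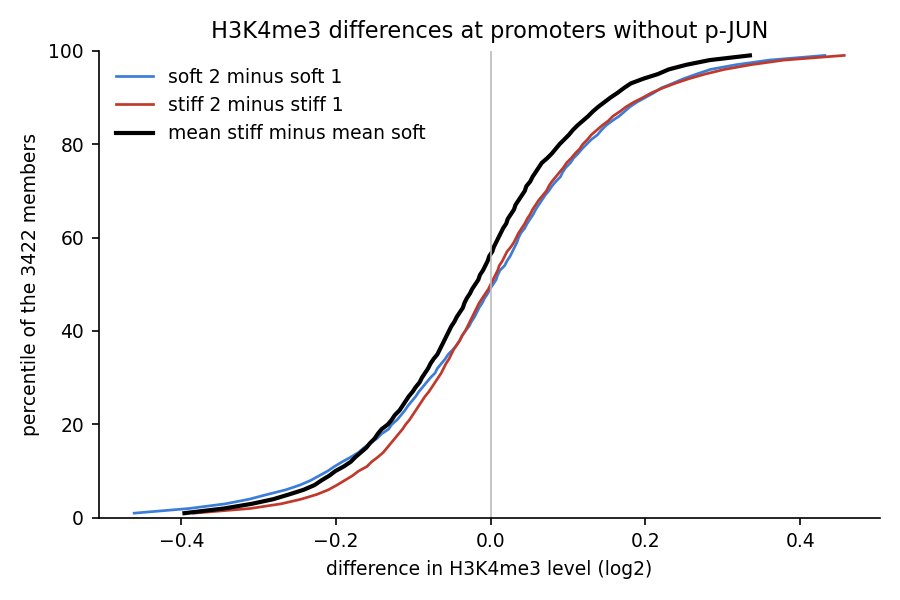
Differences in H3K4me3 level (log2, horizontal axis) over the 3422 members, as the percentile of members (vertical axis) at or below each difference, for the mean of stiff minus the mean of soft and for the replicates of each matrix. From the 5th to the 95th percentile the matrices differed by −0.26 to 0.22, the soft replicates by −0.29 to 0.27 and the stiff replicates by −0.23 to 0.28.

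The members with the lowest p in each direction are given although they did not pass (limma adjusted p = 0.342 for each). IL1R1, the signalling receptor of interleukin-1 (chr2:102758695-102760007), had H3K4me3 folds of 7.14 and 7.60 on soft and 9.96 and 10.7 on stiff, a log2 difference of 0.41 ± 0.07 (SE). CACNG4, a calcium channel gamma subunit gene, had 8.05 and 7.78 on soft and 11.1 and 12.5 on stiff, and its summit held 48 and 49 against 104 and 158 fragments. MYBPC2, a myosin-binding protein gene of fast muscle, had 7.05 and 6.62 on soft and 10.1 and 9.82 on stiff. In these 3 members both stiff libraries lay above both soft libraries.

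In the other direction, DENND6B, a regulator of Rab GTPases, had folds of 7.50 and 8.06 on soft and 5.87 and 5.88 on stiff, a log2 difference of −0.48 ± 0.07. KCTD6, an adaptor of cullin ubiquitin ligases, had 4.66 and 4.54 on soft and 3.25 and 3.54 on stiff. FER1L5, a ferlin family gene, had 6.44 and 6.95 on soft and 4.94 and 5.22 on stiff, and overlapped H3K27ac on soft. Both stiff libraries lay below both soft ones here. The regions of CACNG4, DENND6B, KCTD6 and MYBPC2 lay beside the start and those of IL1R1 and FER1L5 contained it.

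Fitted on summit fragments in place of folds, 2 members passed limma, beside 10 of 16098 regions (0.0621%), both lower on stiff. They are named after their values were seen. OASL, an interferon-induced gene (chr12:121476355-121477124), had 43 and 53 fragments in soft libraries against 14 and 20 in stiff libraries, a centred log2 difference of −1.98 (limma adjusted p = 0.0104). SNAI1, a transcription factor of epithelial-mesenchymal transition (chr20:48599486-48600386), had 62 and 67 fragments in soft libraries against 32 and 44 in stiff libraries, a difference of −1.25 (limma adjusted p = 0.0474). Both stiff libraries were lower for either gene although the stiff libraries held more fragments at the median member. On the fold scale, which divides by the local background, the differences were −0.39 and −0.18 (limma adjusted p = 0.342 and 0.541).

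Promoter sequence was then compared in the 300 bases at the start. The median GC content was 70.3% in members, 66.0% at promoters with p-JUN and 63.7% over the canonical starts of all 19540 coding genes placed on the genome. The ratio of observed to expected CpG was 0.878, 0.853 and 0.778 in the same order. The Sp/KLF letters GGGCGG were found on either strand in 78.8% of members, 75.2% of promoters with p-JUN and 61.8% of all coding promoters. The TATA letters TATAAA were found in 3.80%, 4.17% and 9.56%. Of the 3 groups, members thus had the highest GC content and the largest share with Sp/KLF letters.

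The letters that JUN dimers can bind were less frequent in members than in either other group. Members and promoters with p-JUN were split by p-JUN peaks, so this order bears on the choice itself and is a description. The groups also differed in GC content, whose part in the motif shares was not tested. The AP-1 motif TGACTCA was held by 46 members (1.34%, 1.01 to 1.79), 4.25% of promoters with p-JUN and 3.55% of all coding promoters. The CRE TGACGTCA was held by 59 members (1.72%, 1.34 to 2.22), 5.23% of promoters with p-JUN and 2.71% of all. NF-Y (CCAAT) was found in 31.3% of members, 38.5% and 36.0%, ZBTB33 (TCTCGCGA) in 1.34%, 2.70% and 1.75%, and NRF1 (GCGCATGCG) in 3.01%, 4.17% and 2.71%.

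For ETS and YY1 members lay nearer to promoters with p-JUN than to all coding promoters, and for the E-box, E2F and ZNF143 nearer to all coding promoters. ETS (CCGGAAG) was found in 17.6% of members and 19.7% of promoters with p-JUN, against 14.1% of all coding promoters. YY1 (AAGATGGCG) was found in 3.86%, 4.36% and 2.86%, the E-box CACGTG in 9.35%, 10.6% and 8.75%, E2F (TTTGGCGC) in 0.818%, 1.07% and 0.839%, and ZNF143 (ACTACAATT) in 0.409%, 0.691% and 0.445%. Both strands were searched for each motif, and a promoter may hold several. In windows of the same length around the H3K4me3 summit the shares of members were 7.13% for ETS and 47.1% for Sp/KLF, lower than at the start, but 1.46% for AP-1 and 3.68% for TATA, close to those at the start.

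**Figure D5:**
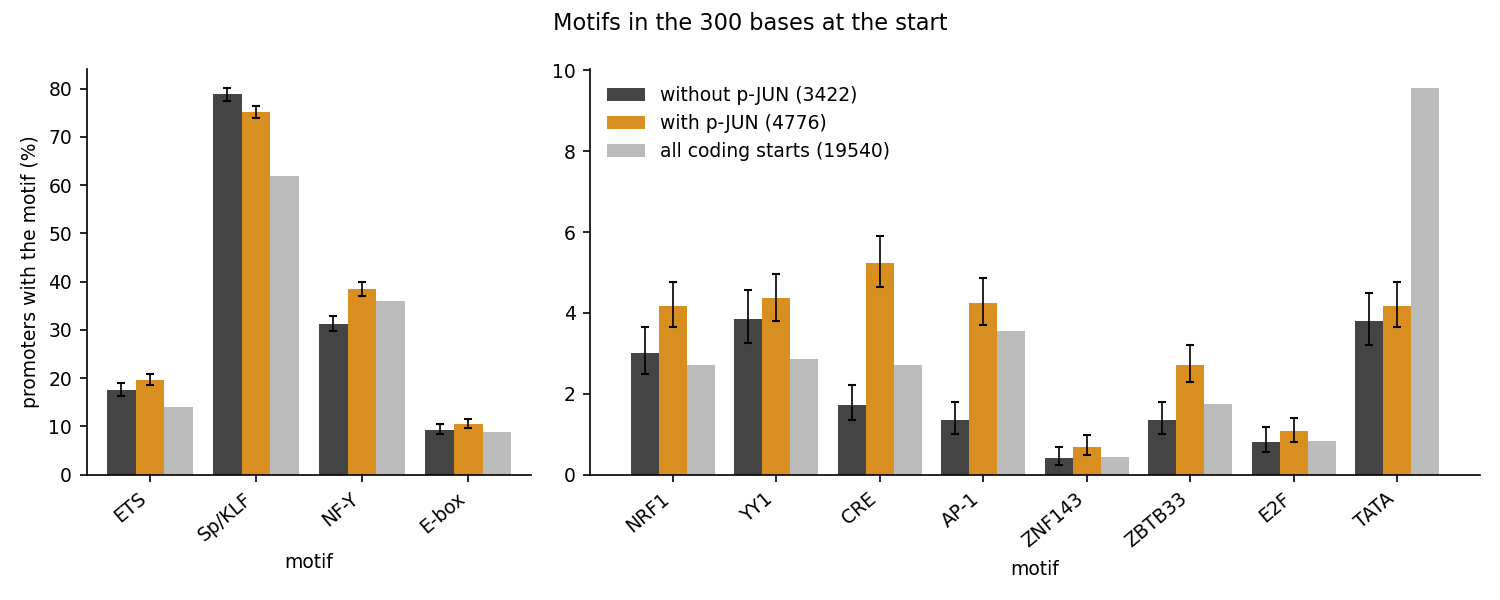
Share of promoters (percent, vertical axes, of different range in the left and right panels) that hold each motif in the 300 bases at the start, for members, promoters with p-JUN and all coding starts. Lines are 95% Wilson intervals for the first and second group, which were split by p-JUN peaks. The AP-1 motif (1.34% against 4.25%) and the CRE (1.72% against 5.23%) were the least frequent in members relative to promoters with p-JUN.

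Members with an ETS motif (601) had a median level of 0.17 and overlapped soft H3K27ac in 17.6%, against −0.09 and 11.0% without it. Members with NRF1 (103) had 0.22 and 21.4%, and those with YY1 (132) 0.14 and 18.2%. The 59 members with a CRE had a level of −0.25 and soft H3K27ac in 5.08%, that is 3 regions. The 46 with an AP-1 motif had 0.01 and 19.6%, that is 9 regions. How far placement and GC content carry these differences was not tested.

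Starts on both strands were less frequent in members. Coding starts of both strands lay within 1 kb of 262 members (7.66%, 6.81 to 8.60) and of 13.5% of promoters with p-JUN (12.6 to 14.5). These 262 members overlapped H3K27ac in 20.2% on soft and 11.1% on stiff, and the other members in 11.5% and 6.30%. An example is the region at MRPL52 and SLC7A7, genes of the mitochondrial ribosome and of amino acid transport, with H3K4me3 folds of 16.2 and 17.1 on soft and 16.6 and 16.4 on stiff. Its H3K27ac fold was 7.37 on soft and 8.84 on stiff.

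By gene family, zinc finger genes named by symbol (ZNF, ZFP, ZSCAN and ZKSCAN, most of them KRAB repressors of the C2H2 type) were the most numerous with a member. A member lay at 185 of the 476 zinc finger genes with H3K4me3 (38.9%, 34.6 to 43.3), against 27.7% over all coding genes with H3K4me3. Promoters with p-JUN were found at 35.5% of the zinc finger genes and 42.3% of all. The 190 zinc finger regions had a median H3K4me3 level of 0.46, against −0.04 over all members, and overlapped H3K27ac in 19.5% on soft and 15.8% on stiff. Of the member regions whose assigned start was that of a zinc finger gene, 103 (55.7%) lay on chromosome 19. That chromosome holds the large zinc finger clusters and 10.5% of all members. ZNF268 had H3K4me3 folds of 16.1 and 17.3 on soft and 16.6 and 17.7 on stiff, and ZNF417 had 16.7 and 17.2 on soft and 17.0 and 17.6 on stiff.

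Next, 6 families of the basic cell machinery are given, each beside the 27.7% of all coding genes with H3K4me3. Members lay at 20 of 78 mitochondrial ribosomal genes (25.6%), 14 of 83 cytosolic ribosomal genes (16.9%), 9 of 48 genes of respiratory complex I (18.8%), 6 of 38 proteasome genes (15.8%), 4 of 34 aminoacyl-tRNA synthetase genes (11.8%) and 10 of 60 genes of vesicle tethering (16.7%). The 95% intervals of the cytosolic ribosomal genes (10.3 to 26.3) and of the synthetases (4.67 to 26.6) lay below 27.7%, and those of the other 4 families held it. Promoters with p-JUN were found at 35.4% to 53.3% of the genes of these 6 families, against 42.3% over all. Where these genes did have a member, its H3K4me3 level was above the median, from 0.19 in vesicle tethering to 0.42 in complex I. MRPS22 of the mitochondrial ribosome had folds of 16.2 and 16.1 on soft and 16.9 and 17.0 on stiff, PSMB6 of the proteasome had 15.7 and 15.9 on soft and 16.6 and 15.7 on stiff, and VPS39 of vesicle tethering had 15.7 and 16.6 on soft and 16.3 and 17.8 on stiff. No gene of any of the 16 families passed limma between soft and stiff.

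In further families members lay at 10 of 30 mediator genes (33.3%, above the share over all, with an interval of 19.2 to 51.2 that holds it), 9 of 34 RNA polymerase subunit genes, 6 of 40 genes of the ANAPC and CDC symbols, 5 of 23 genes of intraflagellar transport and the BBSome, 3 of 15 peroxin genes, 3 of 10 Fanconi genes and 58 of 210 solute carrier genes (27.6%, close to the 27.7% over all). Of 391 olfactory receptor genes, 1 had H3K4me3, and it was a member: OR1F1, with folds of 9.24 and 8.81 on soft and 8.69 and 9.47 on stiff. No H3K27ac was called there.

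Collagen genes, the structural genes of the fibrotic matrix, had a member at 8 of the 19 genes with H3K4me3 (42.1%, interval 23.1 to 63.7, against 27.7% over all coding genes) and a promoter with p-JUN at 1 (5.26%, against 42.3%). The interval of the member share holds the share over all. Promoters with p-JUN are only the narrow regions, without H3K27me3, that had p-JUN in every p-JUN list. The other collagen genes with H3K4me3 were in neither group, and how many of them had any p-JUN peak was not counted. The low share therefore does not show that collagen promoters lacked p-JUN. The 8 genes shared 6 regions, since COL4A1 and COL4A2, and COL4A5 and COL4A6, start from the same stretch on opposite strands. COL6A2 had H3K4me3 folds of 8.79 and 8.42 on soft and 7.96 and 8.36 on stiff, and COL9A2 had 8.20 and 8.64 on soft, against 6.36 and 8.99 on stiff. The levels of the 6 regions ran from −1.46 at COL4A1 to −0.10 at COL6A2, all below the median of H3K4me3 regions. H3K27ac was called at COL6A1 alone, on stiff, with a fold of 4.95 from 16 fragments. For COL4A1 and COL6A1 the nearest p-JUN peak lay only 70 and 131 bp from the region, and for COL6A2 and COL18A1 22352 and 18527 bp.

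The labelled cell type was examined by the promoters of marker genes. Of 10 stellate cell and myofibroblast markers, 6 had H3K4me3 in all 4 lists (ACTA2, COL1A1, PDGFRB, VIM, TAGLN and THY1), COL3A1 had it in 1 list, and COL1A2, LRAT and DES had none. THY1, a surface protein of fibroblasts, was a member, whereas ACTA2, COL1A1, VIM and TAGLN had p-JUN in all 4 lists. No hepatocyte marker of 4 and no leukocyte marker of 3 had H3K4me3. Of 3 endothelial markers KDR, a receptor of vascular endothelial growth factor, had it in all 4 lists and was a member, while PECAM1 and CDH5 had none.

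At the width limit of the rule, FZR1 (1999 bp) and AUTS2 (1997 bp) were the widest members, and CEBPD (2002 bp) and WAPL (2003 bp) were the narrowest regions left out. FZR1, an activator of the anaphase promoting complex, had H3K4me3 folds of 6.25 and 7.53 on soft and 6.67 and 7.22 on stiff, and WAPL, a cohesin release factor, had 6.38 and 7.16 on soft, against 7.07 and 7.60 on stiff. The levels of the 4 regions ran from −0.61 at CEBPD to −0.35 at WAPL, so the values on either side of the limit overlapped.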

How the data were processed

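The authors deposited 14 CUT&Tag peak lists of LX-2 cells, which were grouped by the treatment label. Per the labels, reads were processed with Trim Galore, Bowtie2 and Picard on hg19. The study's methods name MACS2 for ATAC-seq, and these lists have the column layout of that caller, but the caller and options used for CUT&Tag are not given in the sources used here. Per peak, the deposited columns used were a fold, which is the ratio of the summit to local background in its own library, and the −log10 of p and of q. A deposited score, 10 times −log10 q, was not used further. The narrow lists held no −log10 q under 5.00, and the H3K27me3 lists, of broad peaks, none under 1.31. No scaling between lists was stated, and deeper libraries may call more peaks. The depth of H3K27me3 libraries is unknown.

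Members and gene lists were chosen with earlier results of these data known. Peaks of the 4 H3K4me3 lists on 24 chromosomes were merged at an overlap of 1 bp. Starts were those of protein-coding transcripts in GENCODE release 44 mapped to GRCh37, with Ensembl canonical starts preferred, then the start nearest to the middle of the region. Summit fragments were recovered from fold and −log10 p (fold as fragments plus 1 over background plus 1, p from the upper Poisson tail). Whole numbers, within a relative error of 1e-04, came out for 100.0% of H3K4me3 peaks and for 99.87% or more of the H3K27ac peaks. Median H3K4me3 summits had 120 and 141 fragments in the soft libraries against 151 and 207 in the stiff libraries.

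Levels were log2 folds centred per library on the median of the 16098 regions called in all 4 lists. Soft and stiff were compared with limma 3.58.1 (R 4.3.3) over all these regions with Benjamini-Hochberg adjustment, and medians per library by exact permutation or sign-flip tests. The study describes its sequencing replicates as biological, and neither it nor the labels say that the libraries came from separate cultures. P-values measure the spread between these libraries. Shares have 95% Wilson intervals, which cover counting error only, and regions are not replicates. The level fit, the fragment recovery and the selection of members were tested on simulated data. The shifts planted for the level fit were larger than the difference of any member on the fold scale. That test therefore does not show how small a difference the fit could find. The software was python 3.11.15 with scipy 1.17.1, pysam 0.24.0, numpy 2.4.6 and pandas 2.3.3.

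Named members were the 6 highest by mean level, the 3 with the lowest limma p in each direction, the 3 with the highest H3K27ac fold among those acetylated in both lists, the 2 on each side of the width limit, the 2 highest of each family and, for each of 7 motifs, the highest member that held it upstream of the start, of which the AP-1 example is not reported here. Of the 2 per family only some are given. COL4A1, COL6A1, COL18A1, OASL, SNAI1, THY1 and KDR were named after their values were seen or as markers.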

Additional observations from a re-analysis of the deposited data

How the results depend on the processing

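The number of members ran from 2709 (no p-JUN within 1 kb) to 3918 (lists of equal length) over 16 alternatives. The median stiff minus soft difference in H3K4me3 level was too small to keep a sign: it was 0.002 with starts within 500 bp, 0.004 with no p-JUN within 1 kb, 0.000 with lists of equal length and 0.072 without centring, and leaving out 1 library at a time gave −0.015 to 0.006. With the replicate block it was −0.004, and 403 members had an unadjusted limma p under 0.05 with none past the adjusted threshold. The block changed no call. The labels do not say whether a replicate number marks a shared batch. Deviations of same-numbered libraries had a correlation of −0.050, which cannot settle this with so few libraries. Summit fragments in place of folds gave 2 members past the threshold. The H3K27ac share, stiff minus soft, turned to 0.842 points with all lists of a mark cut to equal length, which also changed the members, and to 0.994 with the H3K27ac lists alone cut (chosen after seeing the data). It was −7.37 for members that contain a coding start. The H3K4me3 gap to promoters with p-JUN turned to 0.158 below 600 bp.

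The H3K27ac gap to promoters with p-JUN kept its direction in each of 26 alternatives for soft and 26 for stiff. It moved to −49.5 (soft) and −39.8 (stiff) at a width limit of 1500 bp, and to −43.8 (stiff) at 3000 bp. Where p-JUN within 1 kb counted as p-JUN for both groups, it was −44.5 and −36.1. It was −43.9 (stiff) where p-JUN had to overlap by 50% of its peak, and −44.4 (soft) with lists of equal length. Leaving out 1 library gave −52.7 to −49.3 on soft and −42.4 to −39.3 on stiff. Chosen after seeing the data were the H3K27ac lists alone of equal length (−44.2 on soft), the fixed window (−47.0 and −37.5), the width classes from narrow to wide (−35.9, −40.0, −47.8 and −54.8 on soft; −28.9, −31.5 and −39.5 on stiff in the 3 narrower classes), the GC classes (−54.4 on soft and −45.6 on stiff at 60% to under 70%, −45.5 and −31.1 at 70% or more, −47.0 on stiff under 60%) and regions that contain a start. The cause of these shifts was not tested.

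H3K27ac had 1 list per matrix, and 2 libraries per matrix cannot give an exact p below 0.33. A missing p-JUN call depends on the depth of 4 lists of 48163 to 54168 peaks and does not show that p-JUN was absent. The same holds for H3K27ac, whose lists were shorter, with 18238 peaks on soft and 13322 on stiff. Their median summits held 27 and 26 fragments, so a missing H3K27ac call does not show that the mark was absent.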

Other observations

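Chromosomes differed in how many of their narrow promoters were members. Over all chromosomes, members were 3422 of 10569 narrow promoters. On chromosome 19 these were 360 of 784 (45.9%), on chromosome 22 46.6% and on chromosome X 47.9%. The share was highest on chromosome Y, at 55.6%, but from only 10 of 18 regions. Chromosome 16 had 42.2% and chromosome 21 had 46 of 115, while chromosome 5 had the lowest share, 22.0%. The Fanconi gene FANCF, at a stretch shared with GAS2, lay 157407 bp from the nearest p-JUN peak and had H3K4me3 folds of 12.8 and 14.2 on soft and 13.6 and 13.8 on stiff. AUTS2, a neurodevelopmental gene, lay 270756 bp and ZNF486 266275 bp from p-JUN, the latter with H3K27ac on soft.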
